A study of Mus musculus with 8 samples.

Results

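Small nucleolar RNAs (snoRNAs) and small Cajal body RNAs (scaRNAs) were examined in fully grown germinal vesicle (GV) oocytes, in the rows of the gene count table whose names begin with Snora, Snord or Scarna and a number. A total of 131 of 46078 rows met this rule, 40 named Snora, 82 named Snord and 9 named Scarna. Control oocytes came from Zp3-Cre mice, and CNOT7&8 KO oocytes came from mice with floxed alleles of both Cnot7 and Cnot8 (fl/fl) crossed to the same Zp3-Cre line. The Zp3 promoter drives Cre in growing oocytes, so both groups carried Cre and only the KO mice carried the floxed alleles of the deadenylase genes. Females were on a C57BL/6J background and 4 weeks old, GV oocytes were taken after PMSG injection, and each of the 4 libraries per group held RNA of 100 oocytes. The number of females behind a library is not given in the sources used here.

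snoRNAs guide the chemical modification of ribosomal RNA in the nucleolus. C/D box snoRNAs (Snord) direct 2′-O-methylation by fibrillarin and carry a C box near the 5′ end and a D box near the 3′ end. H/ACA box snoRNAs (Snora) direct pseudouridylation by dyskerin and carry an H box in the middle and an ACA triplet just before the 3′ end. scaRNAs (Scarna) carry the same boxes, reside in Cajal bodies and direct the modification of spliceosomal RNAs. In mammals most of them are cut out of introns of host genes by debranching and exonuclease trimming, whereas a few have their own promoters. A few snoRNAs, such as Snord118, Snord22, Snord14 and Snora73, serve in the cleavage of precursor ribosomal RNA.

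The sequences below are those of the members on which the comparison turned, 6 that passed the test for lower counts in CNOT7&8 KO oocytes at 2-fold, Scarna13, which passed it below 2-fold, and 3 members with high counts that did not pass it. They were read from GENCODE vM21 transcripts on the GRCm38 build, in which all 131 rows were found, and are written 5′ to 3′ on the RNA strand. Capitals mark the first match to the C box letters TGATGA and the last match to the D box letters CTGA in Snord members and Scarna6. H and ACA letters were not marked in Scarna6. In H/ACA-type members they mark every match to the H box letters ANANNA in the middle of the RNA and an ACA 3 bases from the 3′ end. Only the RNA strand was searched, and a match describes letters, not a working box.
Scarna6, chr1:87784556-87784820, plus strand: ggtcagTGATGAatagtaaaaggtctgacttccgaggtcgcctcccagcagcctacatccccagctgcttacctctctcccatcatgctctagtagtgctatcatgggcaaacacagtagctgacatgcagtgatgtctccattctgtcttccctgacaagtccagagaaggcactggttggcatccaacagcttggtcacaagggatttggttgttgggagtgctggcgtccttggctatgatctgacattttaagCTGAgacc
Scarna13, chr12:105031075-105031349, minus strand: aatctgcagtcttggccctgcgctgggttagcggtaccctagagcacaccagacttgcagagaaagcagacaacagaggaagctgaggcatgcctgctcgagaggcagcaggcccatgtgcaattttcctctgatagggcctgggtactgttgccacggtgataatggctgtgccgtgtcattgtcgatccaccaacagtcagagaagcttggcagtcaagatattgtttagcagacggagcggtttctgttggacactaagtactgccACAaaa
Snora41, chr1:63179004-63179135, plus strand: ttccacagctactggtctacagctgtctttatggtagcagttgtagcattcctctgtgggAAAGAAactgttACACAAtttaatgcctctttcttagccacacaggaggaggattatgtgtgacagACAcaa
Snora30, chr7:127527874-127528003, plus strand: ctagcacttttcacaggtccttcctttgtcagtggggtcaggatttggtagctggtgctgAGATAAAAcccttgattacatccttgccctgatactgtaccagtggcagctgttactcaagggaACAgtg
Snora33, chr10:23785347-23785475, minus strand: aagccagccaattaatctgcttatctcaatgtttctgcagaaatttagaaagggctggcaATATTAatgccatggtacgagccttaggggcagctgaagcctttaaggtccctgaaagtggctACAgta
Snord22, chr19:8725866-8725991, plus strand: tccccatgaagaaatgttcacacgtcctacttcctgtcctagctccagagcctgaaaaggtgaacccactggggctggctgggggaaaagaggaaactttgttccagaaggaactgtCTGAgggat
Snord118, chr11:69073427-69073561, plus strand: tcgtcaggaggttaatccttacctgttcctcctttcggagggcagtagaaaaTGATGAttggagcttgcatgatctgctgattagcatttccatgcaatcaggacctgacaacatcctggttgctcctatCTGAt
Snora73b, chr4:132352322-132352526, minus strand: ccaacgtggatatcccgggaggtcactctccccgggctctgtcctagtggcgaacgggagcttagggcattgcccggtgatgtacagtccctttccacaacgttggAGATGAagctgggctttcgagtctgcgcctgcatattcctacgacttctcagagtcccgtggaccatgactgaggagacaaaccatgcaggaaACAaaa
Snora47, chr13:95330600-95330737, plus strand: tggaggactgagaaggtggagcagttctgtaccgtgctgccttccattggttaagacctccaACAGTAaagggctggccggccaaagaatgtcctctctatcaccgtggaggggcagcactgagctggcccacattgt
Snord17, chr2:144265979-144266216, minus strand: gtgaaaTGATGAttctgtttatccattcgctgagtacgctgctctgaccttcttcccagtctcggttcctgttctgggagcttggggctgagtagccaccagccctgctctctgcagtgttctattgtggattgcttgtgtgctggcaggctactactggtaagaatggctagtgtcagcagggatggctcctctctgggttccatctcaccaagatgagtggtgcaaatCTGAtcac

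The boxes followed the names of the families. The D box letters lay within the last 15 bases in 76 of 82 Snord sequences (92.7%) and in 2 of 39 Snora sequences (5.13%), and the C box letters within the first 15 bases in 54 Snord sequences (65.9%) and in 0 Snora sequences. An ACA exactly 3 bases from the end was found in 32 of 39 Snora sequences (82.1%) and in 0 of 82 Snord sequences. Matches to ANANNA in the middle of the RNA were present in 35 Snora (89.7%) and in 17 Snord sequences (20.7%). Among the 9 Scarna sequences, 4 had both C and D boxes at their ends, Scarna6 included, and 2 had the terminal ACA, Scarna13 included. Snord22 had the D box without an exact C box, and in Snord118 the C box began at base 53, behind a long 5′ segment.

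Each library was a separate sample in the labels, and p-values measure the spread between these libraries. Totals ranged from 8639444 to 44092144 counts, at which 3 counts correspond to between 0.347 and 0.068 CPM (counts scaled by library size). Such floors cover counting error only, since reads from PCR are not independent molecules. Of the targeted genes, Cnot8 fell from 167.8 ± 20.01 to 35.2 ± 1.402 CPM and Cnot7 from 933.2 ± 77.3 to 719.2 ± 70.8 CPM (SD, n = 4 each), with no overlap between groups for either, and the Cnot7 row includes sequence whose relation to the deleted part was not analysed here. The 6 oocyte markers examined summed to between 13326 and 14207 CPM in the controls and between 10126 and 12473 CPM in the KO libraries, without overlap. All 6 had log2 fold changes below 0, and 3 were lower at an adjusted p of 0.05 by edgeR's quasi-likelihood test, where the share over all genes was 24.1%. Mos passed at 2-fold (−1.28 ± 0.29, adjusted p = 0.00289). Ooep (−0.88 ± 0.09, adjusted p = 1.2e-05) and Zp3 (−0.37 ± 0.15, adjusted p = 0.0485) passed below 2-fold. The 7 granulosa cell markers summed to between 72.0 and 95.5 CPM in the controls and between 64.6 and 105.2 CPM in the KO libraries, none was at 0 in every library although Foxl2 had 3 counts in all, and 3 (Fshr, Inhba and Kitl) were higher at 2-fold in KO oocytes. Cyp19a1, which made up most of the sum in the controls, was lower under 2-fold, from 58.5 ± 8.01 to 31.4 ± 6.03 CPM without overlap (log2 fold change −0.90 ± 0.16, adjusted p = 0.000507 by edgeR's quasi-likelihood test). The part of these markers in the results was not tested.

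A pair of libraries stood apart, and not for short RNAs alone. Control R1 held the lowest value of the 4 control libraries for 26 of the 36 members tested (72.2%), against 22.9% of all genes tested. KO R4 held the lowest value of the KO libraries for 30 of the 36 (83.3%), against 27.4% of all genes. The same libraries were low for Rn7sk, the abundant short RNA that restrains transcription elongation, with 1818 CPM in control R1 against 7342 to 9539 in the other controls, and 2811 CPM in KO R4 against 5498 to 8023 in the other KO libraries. Some mRNAs of the lists shifted in both libraries too. Mos had 280.6 CPM in control R1 against 661.5 to 785.7 in the other controls. In KO R4 Mos had 158.1 CPM against 253.9 to 341.6 in the other KO libraries. Nlrp5 went the other way, with 2921 CPM in control R1 against 1632 to 1708, and 1751 CPM in KO R4 against 1401 to 1741. Control R1 and KO R4 were also the deepest libraries of their groups. The part of this shift in the results was not tested, and counts of DEGs, class sums and the calls of members are also given without both, an alternative added after seeing the data.

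Detection was uneven. At least 1 count was found for 73 of the 131 rows, namely 22 Snora, 43 Snord and 8 Scarna, and 46 exceeded 3 counts in some library. Counts were present in all 8 libraries for 32 members. The remaining 58 rows had no count, which allows at most 3 counts in a library (0.347 CPM in the shallowest). The members together took 50446 counts, or between 0.0279% and 0.0501% of a control library and between 0.0171% and 0.0359% of a KO library. Scarna6 and Scarna13 held 49.0% of these counts, the top 5 members 76.8% and the top 12 members 94.2%, whereas 39 members had between 1 and 20 counts in all.

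Length and position went with detection. Among 130 rows (all but a Snora26 row whose identifier is that of the long RNA Dancr, 2347 bases), the 73 shorter than 100 bases held 879 counts and the 57 of at least 100 bases held 49566. Of 61 rows that shared no base with an exon of another gene on their strand, 51 had a count (83.6%). Of 64 rows that lay for at least 50% of their length inside such an exon, 16 had one (25.0%). Of the 25 rows that were long and free of overlap, 23 had a count (92.0%), and 21 passed the filter on low counts. Of the 35 rows that were short and overlapped, 7 had a count (20%). How the authors' counting treated reads shared by 2 genes is not given in the sources used here, so a row at 0 is a row without assigned reads, and the part of the overlap was not tested.

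**Figure D1:**
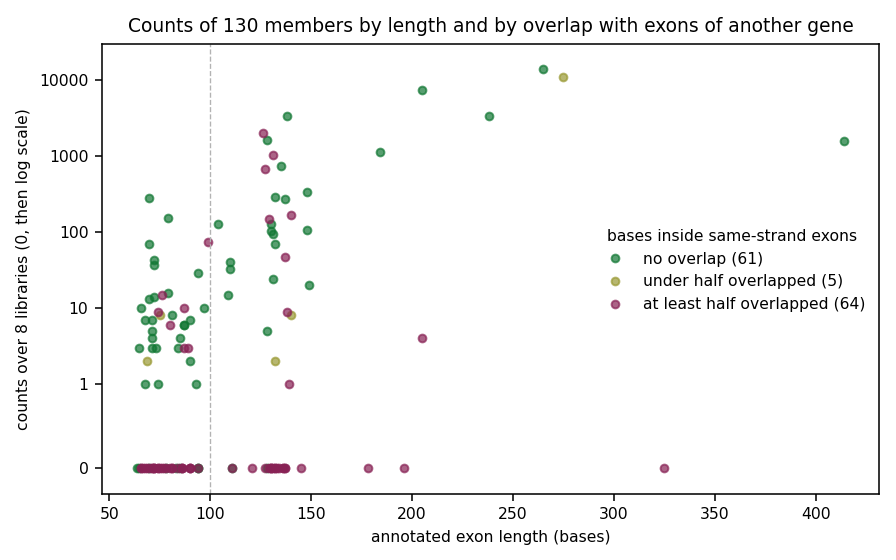
Counts summed over 8 libraries (vertical axis, 0 and then a log scale) against annotated exon length in bases for 130 members, one point each, coloured by how much of the member lies inside exons of another gene on the same strand. The dashed line marks 100 bases, the highest points are the long Scarna6 and Scarna13, and most members at 0 are overlapped for at least 50% of their length.

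Several well-known members were among those with no count. The U14 snoRNAs Snord14c, Snord14d and Snord14e, which lie in Hspa8, had none, and Snord14a, in Rps13, had between 0 and 4 counts in a library, 10 in all. Snord47, Snord78 and Snord80 of Gas5, Scarna10 and Snora74a had none. Of the imprinted snoRNA clusters, the rows present were Snord64, Snord107, Snord116l1 and Snord116l2, and each had 0 counts in 8 libraries. Snord116l1 and Snord116l2, which are identical over 94 bases, shared no exon with another gene, and reads from identical copies cannot be assigned to 1 of them.

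The Snora73 copies were counted very differently. Snora73a and Snora73b, both in Snhg3, differ at 7 of 205 bases (96.6% identity), and Snora73b had 7335 counts where Snora73a had 4, of which 0 were in control and 4 in KO libraries. The Snora73a row is overlapped by another gene's exons for 77.6% of its length and the Snora73b row is free of overlap, so the level given for Snora73b is uncertain as that of a single copy. Of the 7 differences, 3 are the last 3 bases, and the longest stretch without one is 56 bases, as comparison with the Snora73b sequence above shows.
Snora73a, chr4:132352775-132352979, minus strand: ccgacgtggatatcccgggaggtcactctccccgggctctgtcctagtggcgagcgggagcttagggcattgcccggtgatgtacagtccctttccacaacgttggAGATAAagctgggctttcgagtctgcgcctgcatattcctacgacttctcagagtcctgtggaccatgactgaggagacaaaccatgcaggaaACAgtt

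The number of members detected in a library overlapped between the groups. Between 46 and 52 members had a count in a control library (mean 50 ± 2.71, SD, n = 4) and between 45 and 58 in a KO library (52.2 ± 5.38). Brought to the depth of the shallowest library, the expected number was between 37.4 and 45.5 in control and between 38.7 and 50.5 in KO libraries. With more than 3 counts required, between 32 and 37 members were found in control and between 25 and 34 in KO libraries.

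The level of each class was then compared. CPM values are counts divided by the library total scaled by TMM, which takes most genes as unchanged. At an adjusted p of 0.05 by edgeR's quasi-likelihood test, 24.1% of all genes tested were lower and 31.2% higher, so this assumption is uncertain here. The TMM factors were 0.849 to 0.943 in control and 1.07 to 1.14 in KO libraries, which raises control CPM and lowers KO CPM. Overlap between groups was read from these scaled values throughout. Scarna members summed to 197.8, 199.6, 283.4 and 218.1 CPM in control R1 to R4 and to 117.7, 136.6, 121.7 and 88.8 CPM in KO R1 to R4. Every KO library lay below every control library, and the KO mean was 51.7% of the control mean. Snora members summed to between 86.2 and 173.2 CPM in the controls and between 51.8 and 134.3 CPM in the KO libraries (75.8% of the control mean), and Snord members to between 44.9 and 74.4 CPM in the controls and between 15.1 and 53.3 CPM in the KO libraries (60.6%). For these 2 classes the groups overlapped. The sums describe the libraries and carry no test, and the Scarna sum is mostly 2 RNAs, since without Scarna6 and Scarna13 (and Snora73b, the 3 members of highest level) its log2 ratio moved from −0.95 to −0.45. Without control R1 and KO R4 the log2 ratio was −0.90 for Scarna, −0.34 for Snora and −0.58 for Snord, against −0.95, −0.40 and −0.72 with all libraries. CPM is a share of the library, so less of a member and more of other RNA cannot be told apart, nor can fewer oocytes with the RNA and less RNA per oocyte.

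**Figure D2:**
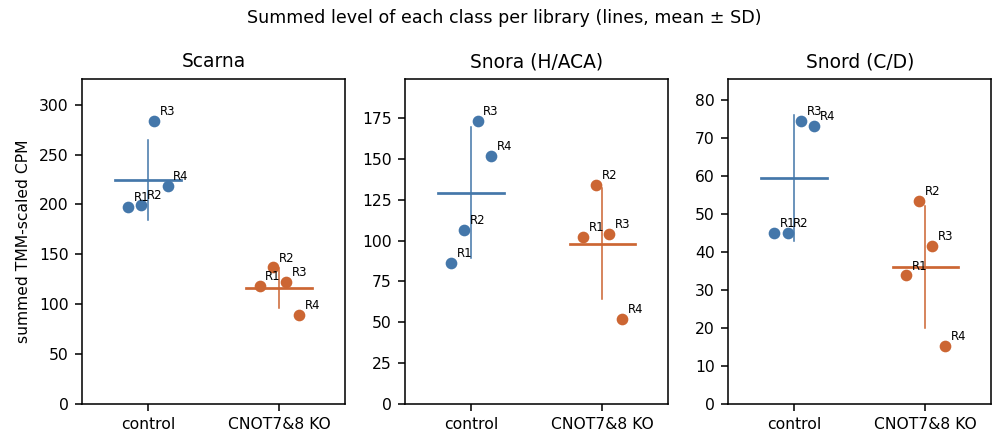
Summed TMM-scaled CPM of Scarna, Snora and Snord members in each library (points, R1 to R4), with the mean (horizontal line) and SD (vertical line) of 4 control and 4 CNOT7&8 KO libraries on axes that start at 0. The Scarna sums do not overlap, from 197.8 in the lowest control to 136.6 in the highest KO library, and control R1 and KO R4 are the lowest libraries of their groups in all 3 classes.

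A total of 36 members had at least 0.2 CPM in 2 or more libraries and entered edgeR's quasi-likelihood test over 19241 genes, 17 Snora, 13 Snord and 6 Scarna. A gene was called a DEG when its Benjamini-Hochberg adjusted p was 0.05 or less and it differed by 2-fold or more. Of the 36 members, 6 (16.7%) were downregulated DEGs, against 6.56% of all genes tested, and 0 were upregulated, against 23.8%. Without the fold threshold, 8 (22.2%) were lower, against 24.1% of all genes, and 0 were higher, against 31.2%. At an unadjusted p under 0.05, 0 members were higher in this test, and 0 passed as higher by edgeR's exact test or by DESeq2. At an adjusted p of 0.05 without the fold threshold, the share of lower members was thus near the background, and the counts carry no test of the group. The KO values lay wholly below the control values for 4 members (11.1%), against 21.4% of all genes, and wholly above for 0, against 27%.

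The log2 fold changes of the 36 members had a median of −0.62, and 28 were below and 8 above 0, whereas the median of all genes tested was 0.12. The scaling moves both values together. With library totals alone the members' median was −0.34 and that of all genes 0.41, and the distance between them was between −0.74 and −0.76 under each of 5 scalings. Without KO R4 the distance was −0.43, without control R1 it was −0.93, and without both it was −0.59. The number of downregulated DEGs went from 6 to 1 without KO R4 and to 12 without control R1, and it was 5 without both. With library totals alone it was 1.

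**Figure D3:**
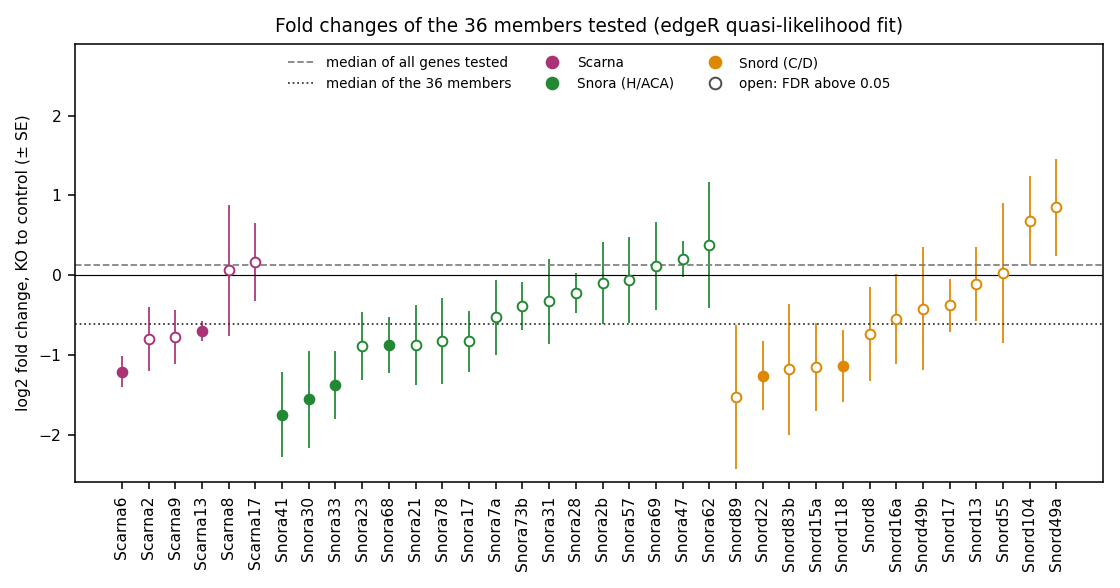
Log2 fold change of CNOT7&8 KO to control (vertical axis, point with SE) for the 36 members tested, ordered within Scarna, Snora and Snord. Filled points passed an adjusted p of 0.05 and open points did not; 28 of 36 points lie below 0, the dotted line marks the members' median of −0.62 and the dashed line the median of all genes, 0.12.

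Scarna6 had the highest level per length, at 328.3 CPM per kilobase of exon over the 8 libraries, followed by Scarna13 at 250.6 and Snora73b at 241.4. These values rank assigned reads and are not corrected for the way counts went with length and overlap, so they do not rank the RNAs themselves. Scarna6, which had C and D box letters at its ends, lies in an intron of the autophagy gene Atg16l1. It had 111.8, 100.0, 158.3 and 115.5 CPM in control R1 to R4 and 49.7, 74.5, 47.2 and 38.8 CPM in KO R1 to R4. All KO libraries were below all control libraries. The log2 fold change was −1.21 ± 0.20 (SE, adjusted p = 0.00031 by edgeR's quasi-likelihood test), and the adjusted p stayed at or below 0.00294 in all 18 alternatives tried. With library totals alone the change was −0.93 and with TMM on genes of at least 10 CPM it was −0.96, both under 2-fold.

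Scarna13, an H/ACA-type guide in an intron of the noncoding host Snhg10, was the second scaRNA that fell. It had 78.2, 83.5, 100.8 and 78.4 CPM in the control libraries and 57.6, 51.6, 57.0 and 44.4 CPM in the KO libraries, again without overlap. Its log2 fold change was −0.70 ± 0.13 (adjusted p = 0.000697), a decrease to 61.8% of the control mean that is under 2-fold, and it passed an adjusted p of 0.05 in all 18 alternatives, the largest being 0.0217. Scarna6 and Scarna13 were the only members that kept an adjusted p of at most 0.05 without KO R4.

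The other Cajal body RNAs did not pass the test. Scarna2, a guide for U2 spliceosomal RNA with a promoter of its own, had between 5.59 and 19.6 CPM in the controls and between 4.09 and 13.8 CPM in the KO libraries (log2 fold change −0.80 ± 0.40, adjusted p = 0.109). Without control R1 and KO R4 its change was −0.83 with an adjusted p of 0.0104, and the adjusted p was 0.0125 without control R1 alone and 0.0393 without KO R3 alone. Scarna9, annotated over 70 bases in Cep295, had 2.44 ± 0.964 CPM in the controls and 1.403 ± 0.397 CPM in the KO libraries (−0.78 ± 0.34, adjusted p = 0.0712), with an adjusted p of 0.0326 without control R1 and 0.0742 without both control R1 and KO R4. Scarna17 had 1.05 ± 0.509 and 1.13 ± 0.562 CPM (0.16 ± 0.49), and its sign turned without control R1 or KO R3. Scarna8 had between 0 and 7 counts in a library.

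Among H/ACA snoRNAs, 3 were downregulated DEGs, all of them at low levels. Snora41, in an intron of the elongation factor gene Eef1b2, had 13, 13, 14 and 15 counts in control R1 to R4 and 2, 6, 3 and 4 counts in KO R1 to R4. These correspond to 0.759 ± 0.333 CPM and 0.217 ± 0.0821 CPM, without overlap, and to a log2 fold change of −1.75 ± 0.53 (adjusted p = 0.0137). The gap between groups was narrow, 0.3475 CPM in control R1 against 0.3296 CPM in KO R2, and it depended on the scaling. By library totals alone the groups overlapped, with 13 of 44092144 counts in control R1 against 6 of 16432525 in KO R2. Snora41 showed the largest decrease among the members tested. Its adjusted p was 0.0521 without KO R4 and below 0.05 in the other 16 alternatives in which it was tested.

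Snora33, inside an exon of the ribosomal protein gene Rps12, had 37, 20, 32 and 22 counts in the control and 3, 12, 14 and 9 counts in the KO libraries. Its CPM fell from 1.44 ± 0.571 to 0.539 ± 0.270 without overlap (log2 fold change −1.38 ± 0.43, adjusted p = 0.0173), and the call was lost in 4 of 17 alternatives, in which the adjusted p lay between 0.0523 and 0.0606. By library totals alone the Snora33 groups overlapped, with 37 of 44092144 counts in control R1 against 14 of 14210736 in KO R3. Snora30 had 15, 23, 28 and 31 counts in the control and 2, 15, 10 and 5 counts in the KO libraries, 1.42 ± 0.828 and 0.457 ± 0.316 CPM, and the groups overlapped (−1.56 ± 0.61, adjusted p = 0.0443). The Snora30 call was lost in 9 of 17 alternatives. Snora68, which lies inside an exon of its host, passed the test below 2-fold (9.28 ± 3.36 and 5.04 ± 2.15 CPM, −0.88 ± 0.35, adjusted p = 0.0498), a call that was lost in 11 of 18 alternatives. Without control R1 and KO R4, the adjusted p was 0.0123 for Snora41, 0.0281 for Snora33, 0.0115 for Snora30 and 0.0085 for Snora68.

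Of the 5 H/ACA snoRNAs with the highest CPM per kilobase, only Snora68 passed the test. Snora73b, the U17 snoRNA needed for cleavage of the 18S precursor, had 45.1, 40.7, 71.5 and 66.9 CPM in the controls and 47.7, 67.4, 36.2 and 20.5 CPM in the KO libraries (log2 fold change −0.39 ± 0.30, adjusted p = 0.295). The groups overlapped over most of their range, and the change was −0.24 without control R1 and KO R4. Snora47, in an intron of Zbed3, had 12.9, 21.0, 28.3 and 22.8 CPM in the controls and 24.0, 28.0, 27.9 and 17.5 CPM in the KO libraries (0.20 ± 0.23, adjusted p = 0.474). Snora78 ranged from 3.18 CPM in control R1 to 21.9 CPM in control R3 and from 2.45 CPM in KO R4 to 13.7 CPM in KO R3 (−0.83 ± 0.54, adjusted p = 0.211). Without control R1 and KO R4 its change was −0.85 with an adjusted p of 0.000882, and without control R1 alone it was −1.19 with an adjusted p of 0.0202. Snora23, in the importin gene Ipo7, had 9.58 ± 3.67 and 5.17 ± 3.30 CPM (−0.89 ± 0.43, adjusted p = 0.0979). It passed without KO R2 (−1.41, adjusted p = 0.018) and without control R2 (−1.12, adjusted p = 0.0456), and was −0.56 without KO R4 and −0.60 without both control R1 and KO R4.

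**Figure D4:**
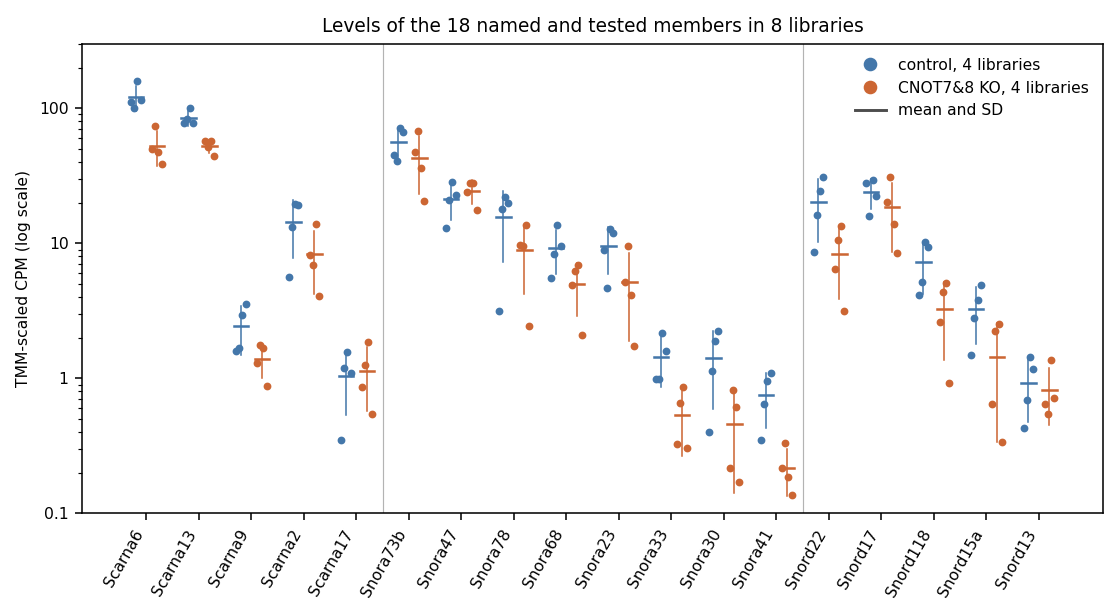
TMM-scaled CPM (log axis) of the 18 named and tested members in 4 control and 4 CNOT7&8 KO libraries, one point per library with the mean and SD, ordered by CPM per kilobase within each class. Scarna6, Scarna13, Snora33 and Snora41 show no overlap between groups after TMM scaling, and Snora47 and Snord17 overlap. By library totals alone Snora33 and Snora41 overlap as well.

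Of the C/D snoRNAs, 2 that act in precursor ribosomal RNA cleavage were downregulated DEGs. Snord22, the U22 snoRNA of the 18S pathway, lies wholly inside an exon of Snhg1, and the annotated Snhg1 gene has no row in the count table. Reads of the snoRNA and of that exon cannot be told apart here, and no host value could be set beside it. Snord22 had 8.61, 16.1, 24.5 and 31.3 CPM in the controls and 6.41, 10.6, 13.4 and 3.17 CPM in the KO libraries. The groups overlapped through control R1, and the log2 fold change was −1.26 ± 0.43 (adjusted p = 0.0268). Snord118, the U8 snoRNA of the 28S and 5.8S pathway, which has no host gene, had 4.14, 5.18, 10.2 and 9.32 CPM in the controls and 2.61, 4.39, 5.12 and 0.920 CPM in the KO libraries (−1.14 ± 0.45, adjusted p = 0.0465). The call was lost in 6 of 18 alternatives for Snord22 and in 9 of 18 for Snord118. The adjusted p without KO R4 was 0.06 and 0.0863, and without both control R1 and KO R4 it was 0.00136 and 0.0108.

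The other named C/D snoRNAs did not pass with all libraries. Snord17, in an intron of the sorting nexin gene Snx5, had 28.0, 15.9, 29.3 and 22.6 CPM in the controls and 20.1, 31.3, 14.0 and 8.45 CPM in the KO libraries (log2 fold change −0.38 ± 0.33, adjusted p = 0.339). The value moved to −0.76 (adjusted p = 0.0487) without KO R2, to −0.11 without KO R4 and to −0.04 without both control R1 and KO R4. Snord15a, in Rps3, had 3.27 ± 1.47 and 1.44 ± 1.11 CPM (−1.15 ± 0.55, adjusted p = 0.0926). It passed without control R1 (−1.41, adjusted p = 0.0364), without both control R1 and KO R4 (adjusted p = 0.0363) and with the replicate block (−1.36, adjusted p = 0.0373). Snord13, which pairs with 18S ribosomal RNA and has no host, had 0.928 ± 0.452 and 0.818 ± 0.366 CPM (−0.11 ± 0.46), and its sign turned with library totals alone, with TMM on genes of at least 10 CPM and without any of 3 libraries. The highest fold change among the members was that of Snord49a, named after its values were seen, at 0.85 ± 0.61 (adjusted p = 0.256) from between 3 and 9 counts in a library.

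Intronic members share a precursor with their host, and members in an exon overlap the spliced host RNA, so each member was set beside its host. Of 130 short rows, 60 lay in an intron and 62 in or across an exon of a host on the same strand, and 8 had no host. Both member and host were tested for 27 members of 26 hosts. The member's log2 fold change was below the host's for 20 and above it for 7, with a median of −0.55 for members, −0.23 for hosts and −0.51 for the difference. For the 23 with a protein-coding host, the median difference was −0.25. The 27 members include some in introns and some in exons. These are descriptions of values from the same fit. A host row can hold reads of a member inside its exons, and a member row can hold reads of a host exon or of unspliced host RNA.

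Atg16l1, the host of Scarna6, had 228.4 ± 8.47 CPM in the controls and 239.1 ± 20 CPM in the KO libraries (log2 fold change 0.07 ± 0.10, adjusted p = 0.59). Gm25395, annotated as a scaRNA gene 7347 bases from Scarna6 in the same host, was outside the rule and had 219.1, 171.0, 269.0 and 213.8 CPM in the controls and 82.3, 118.9, 78.8 and 72.6 CPM in the KO libraries. The groups did not overlap, and the log2 fold change was −1.31 ± 0.17 (adjusted p = 6.1e-05). Both scaRNAs of this gene were thus downregulated DEGs, and their host did not pass the test. At Zbed3, Snora47 and the host (945.4 ± 187.4 and 884.1 ± 131.5 CPM, −0.10 ± 0.15) did not pass, and the snoRNA gene Gm22661, 1881 bases from Snora47, had 8.89 ± 2.66 CPM in the controls and 15.5 ± 2.23 CPM in the KO libraries (0.79 ± 0.21, adjusted p = 0.00781).

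Some hosts rose where the member did not. Snhg3, which holds Snora73b, rose from 0.326 ± 0.0399 to 2.27 ± 0.770 CPM (log2 fold change 2.80 ± 0.36, adjusted p = 4.3e-05), although the protein-coding gene Rcc1, which also contains Snora73b, had 39.4 ± 3.62 and 32.3 ± 3.17 CPM (−0.29 ± 0.13, adjusted p = 0.071). Snx5, which holds Snord17, rose from 13.7 ± 1.94 to 33.6 ± 4.88 CPM (1.29 ± 0.16, adjusted p = 2.9e-05). Snhg9, the host of Snora78, rose from 0.605 ± 0.392 to 1.95 ± 1.60 CPM (1.78 ± 0.68, adjusted p = 0.0401). In the other direction, Eef1b2 fell from 93.3 ± 6.70 to 53.5 ± 6.02 CPM (−0.80 ± 0.12, adjusted p = 0.000122) beside Snora41 at −1.75. None of the 26 hosts was a downregulated DEG at 2-fold, while 10 were lower and 5 higher at an adjusted p of 0.05, where the shares over all genes were 24.1% and 31.2%.

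**Figure D5:**
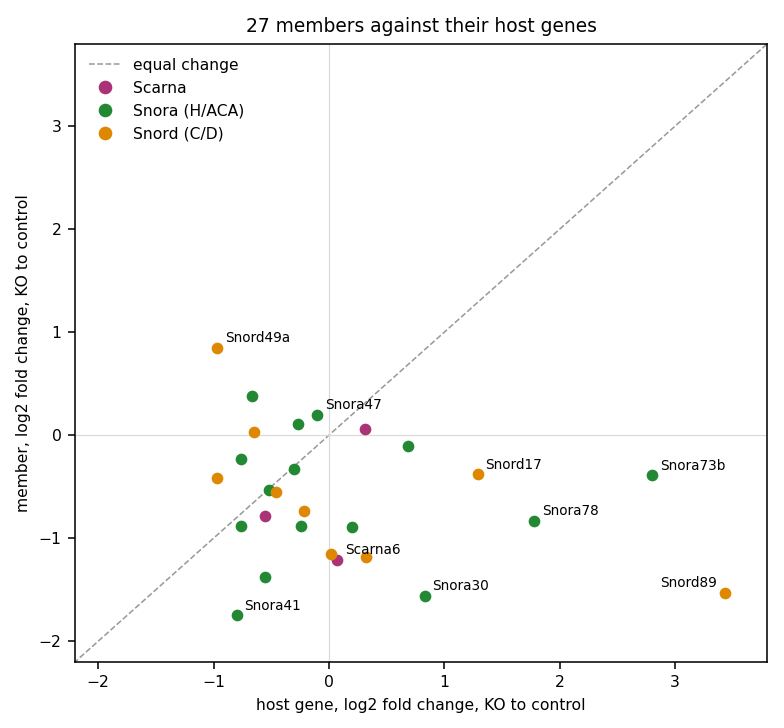
Log2 fold change of 27 members (vertical axis) against that of their host gene (horizontal axis), with the line of equal change dashed. Points below the line (20 of 27) are members with a lower fold change than their host; Snora73b, Snord17, Snora78 and Snord89 lie far to the right, where the host rose, and Scarna6 lies near a host change of 0.

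The proteins that bind, assemble, transport and trim these RNAs were read from a list of 37 genes, of which 36 were in the table and all 36 were tested. At 2-fold, 2 were downregulated and 5 upregulated DEGs, where the shares over all genes were 6.56% and 23.8%. At an adjusted p of 0.05 alone 14 were lower and 10 higher, against 24.1% and 31.2% of all genes. Their median log2 fold change was −0.25, against 0.12 for all genes. Of the H/ACA core, Gar1 fell from 19.4 ± 2.21 to 9.32 ± 2.11 CPM (−1.07 ± 0.18, adjusted p = 0.000391), and Dkc1, which encodes the pseudouridine synthase dyskerin, rose below 2-fold (0.52 ± 0.16, adjusted p = 0.0148). Of the C/D core, Fbl, which encodes the methyltransferase fibrillarin, had 8.82 ± 2.28 and 10.4 ± 2.64 CPM (0.25 ± 0.25, adjusted p = 0.409).

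Assembly and transport genes went in both directions. Ruvbl2, an ATPase of the assembly chaperone, fell from 134.1 ± 56.4 to 54.7 ± 21.4 CPM (log2 fold change −1.30 ± 0.35, adjusted p = 0.00767). The Ruvbl2 groups overlapped through control R1, at 52.9 CPM. Znhit3, an assembly factor of C/D particles, rose from 11.4 ± 2.66 to 26.1 ± 4.06 CPM (1.19 ± 0.19, adjusted p = 0.000251). Wrap53, whose protein brings scaRNAs to Cajal bodies, rose from 0.834 ± 0.353 to 4.05 ± 0.957 CPM (2.20 ± 0.32, adjusted p = 0.000113). Tgs1, the enzyme that hypermethylates RNA caps, rose from 4.06 ± 0.741 to 14.5 ± 4.90 CPM (1.84 ± 0.24, adjusted p = 5.6e-05). Coil, the gene of the Cajal body scaffold coilin, rose below 2-fold (0.57 ± 0.20, adjusted p = 0.0252).

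Among genes for release and 3′ trimming, Dbr1, the debranching enzyme that opens intron lariats, had 3.66, 2.42, 2.93 and 2.40 CPM in the controls and 17.3, 15.3, 23.9 and 26.4 CPM in the KO libraries. This was the largest rise of the list, 2.84 ± 0.23 on the log2 scale (adjusted p = 1.4e-06). Toe1, a Cajal body deadenylase that trims small RNA 3′ ends, rose from 4.56 ± 1.02 to 15.4 ± 1.81 CPM (1.75 ± 0.19, adjusted p = 1.2e-05). Parn, another deadenylase acting on H/ACA RNA tails, did not pass (60.7 ± 6.10 and 52.8 ± 3.94 CPM, −0.20 ± 0.12, adjusted p = 0.16). Of the 12 genes of this list, 5 were lower and 3 higher at an adjusted p of 0.05, against 24.1% and 31.2% of all genes. The 5 lower ones were all under 2-fold, among them Exosc10 of the nuclear exosome (−0.74 ± 0.10, adjusted p = 8.7e-05).

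Other short RNAs did not share 1 direction. Of 12 tested genes of the list, 0 were downregulated DEGs (0 also at an unadjusted p under 0.05 in edgeR's quasi-likelihood test). Upregulated DEGs were 2, Rmrp and Rnu5g. The shares over all genes were 6.56% for lower and 23.8% for higher. Rnu5g had 53 counts over 8 libraries, 0.169 ± 0.0779 CPM in the controls and 0.590 ± 0.338 CPM in the KO libraries (log2 fold change 1.62 ± 0.58, adjusted p = 0.0324). Rmrp, the RNA of a ribonuclease that cleaves precursor ribosomal RNA, had 1.63, 2.52, 11.9 and 2.48 CPM in the controls and 17.4, 23.4, 32.1 and 4.63 CPM in the KO libraries (log2 fold change 2.10 ± 0.64, adjusted p = 0.0145), with overlap between groups. Terc, the telomerase RNA and itself an H/ACA RNA, had 1.41 ± 0.692 and 2.06 ± 1.12 CPM (0.60 ± 0.44, adjusted p = 0.261), and Rn7sk 6718 ± 3390 and 5599 ± 2151 CPM (−0.26 ± 0.41, adjusted p = 0.606).

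Genes annotated as snoRNA or scaRNA but named outside the rule numbered 1428. Of these, 243 had a count and 78 were tested, of which 15 were downregulated and 2 upregulated DEGs, against 6.56% and 23.8% of all genes. Their median log2 fold change was −0.65, beside −0.62 for the 36 members and 0.12 for all genes, and 54 of the 78 were below 0.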

How the data were processed

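Total RNA of GV oocytes was sequenced by the authors as 150-bp read pairs from ribosomal RNA-depleted libraries. The labels name a total RNA kit and the paper's methods an mRNA kit, both stranded. Reads were mapped to GRCm38 with STAR 2.6.1d in the nf-core/rnaseq pipeline, and edgeR 3.11 is named in the submitters' processing notes. The authors deposited raw counts per gene, neither normalized nor filtered. The counting step of the pipeline, its annotation and its strand setting are not given in the sources used here, so members that overlap an exon, and near-identical copies, are uncertain. Each of the 8 value columns was mapped to a sample by genotype and replicate number, and 0 columns belonged to other samples.

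The tests were run in edgeR 4.0.16 under R 4.3.3 (quasi-likelihood test, TMM scaling, Benjamini-Hochberg adjustment over all 19241 genes with at least 0.2 CPM in 2 libraries). This test, rather than the authors' exact test, was the main one; the exact test and DESeq2 1.42.0 were alternatives, with other scalings, other filters, a replicate block and each library left out in turn. The fits were tested on simulated data. No pair of libraries agreed within counting noise. Positions, hosts (the shortest gene on the same strand that contains the member) and sequences came from GENCODE vM21, in which 45143 of 46078 identifiers were found. Python 3.11.15, pandas 2.3.3 and matplotlib 3.10.9 were used for summaries and figures. Total counts ranged from 8639444 to 44092144 per library. Members named with values were the 5 of highest CPM per kilobase in each class, all DEGs, those with the listed roles in ribosomal RNA cleavage, Cajal bodies or imprinted clusters, their hosts, and listed protein and short RNA genes that passed the test or were listed by name. The host of Snora68 is not reported here. Snord49a, Snora34, Snord89 with its host Gm15832, and the 2 Gm genes near Scarna6 and Snora47 were named after their values were seen. The members, lists and tests were chosen with earlier results of these data known.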

Additional observations from a re-analysis of the deposited data

Results flagged for a closer look

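The number of members with at least 1 count was 46 in control R4, while the other 3 control libraries had between 51 and 52. This library was farther from its neighbours than Dixon's criterion for 4 samples allows (gap to range 0.833). Over the 64 groups of 4 libraries examined, of single members, detection and summed levels, 1 was flagged and chance alone gives about 3.2, 1 in 20. Control R4 had the lowest total of the control libraries, 14943671 counts, and with more than 3 counts required it held 32 members, as control R3 did.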

How the results depend on the processing

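The count of downregulated DEGs among the members, 6, was 1 with library totals alone, 1 with TMM on genes of at least 10 CPM and 2 of 18 with at least 1 CPM in 4 libraries, a filter that tests fewer members by construction. It ranged from 1 to 12 when a library was left out, was 5 without both control R1 and KO R4 and was 7 with the replicate block. At an adjusted p of 0.05 alone the count, 8, was 3 with library totals, 5 with upper quartile scaling, 3 with TMM on genes of at least 10 CPM, 3 with the stricter filter, between 2 and 14 with a library left out, 11 without both and 9 with the replicate block. The count of higher members, 0 by both rules, was 1 by both without a filter on low counts, Snora34, which had 0 counts in the control and 1, 3, 0 and 5 counts in the KO libraries, and was 0 whichever library was left out. The cause of these shifts was not tested. The replicate numbers showed no clear pairing of the samples: deviations of same-numbered libraries correlated at -0.0719, -0.0418, 0.11 and -0.121. With 4 libraries per group these values cannot exclude a shared batch, and the block is given as an alternative only.

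The median of tested members, -0.62, ranged from -0.87 to -0.33 with a library left out and was -0.66 with the block. The number of members detected, 73, was 46 with more than 3 counts required and between 71 and 73 with a library left out, and the mean per KO library, 52.2, was 30.5 with more than 3 counts. The log2 ratio of the summed Scarna level, -0.95, was -0.67 with library totals, -0.45 without the 3 members of highest level and between -1.04 and -0.82 with a library left out, against -0.59 to -0.19 for Snora (-0.40) and -0.98 to -0.47 for Snord (-0.72). Scarna17 (0.16) turned to -0.19 without control R1 and -0.18 without KO R3, and was highest without KO R4 (0.45). Snord13 (-0.11) turned to 0.16 with library totals, 0.12 with TMM on genes of at least 10 CPM, and 0.18, 0.02 and 0.06 without control R3, control R4 or KO R2. The other 16 named and tested members kept their sign in every alternative in which they were tested.

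The precision of low members is limited by their counts, since 39 had between 1 and 20 counts over 8 libraries.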
